A study of Mus musculus with 4 samples.

Results

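Metallothioneins are small cysteine-rich proteins that bind zinc and copper, and 5 genes of zinc handling were followed here in mouse pancreatic islets: the metallothionein genes Mt1 and Mt2, the gene of the zinc-sensing transcription factor MTF-1 (Mtf1), and the zinc transporter genes Slc30a1 and Slc30a8. The 5 genes were taken by name from the 32285 genes of the count matrices. They were chosen by the measured levels of Mt1 and Mt2, which had been seen to be lower in the knock-in islets on both diets, so the difference between genotypes in these 2 genes is a description and not a finding. A rise in free zinc in the cytosol lets MTF-1 bind short DNA motifs called metal response elements, through which metallothionein genes and Slc30a1 are induced. Slc30a1 encodes ZnT1, which exports zinc across the plasma membrane. Slc30a8 encodes ZnT8, which loads zinc into the insulin granules of beta cells, where insulin is stored as zinc-containing crystals.

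The islets came from male C57BL6/N littermates that were either Pax4 WT or Pax4 HH. HH mice are homozygous for a missense substitution knocked into the endogenous Pax4 gene, which encodes a transcription factor of endocrine development. Mice on SCD (standard chow) were 12 weeks old, and mice on HFD (high-fat diet) were 16 weeks old after 4 weeks of that diet, so that diet and age cannot be told apart. Each of the 4 combinations is 1 library of droplet 3′ single-cell RNA sequencing, made from the islets of 2 to 3 mice, which were pooled and then dissociated with trypsin. Pax4 had 0 UMIs (unique molecular identifiers, 1 per captured transcript) in the 7782 insulin cells, so the counts give no check of the genotype labels.

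With 1 library per group there is no replicate, no test was run between groups, and each interval below is a 95% interval that covers counting error only. Spread between mice is not measured by these data. The libraries held 4665 to 7123 barcodes and between 68011082 and 104810105 UMIs. A filter on mitochondrial share, total UMIs and detected genes kept 61.6% to 67.8% of the barcodes in 3 libraries and 38.3% in WT HFD. WT HFD thus stands apart, and a looser filter that kept 64.4% of its barcodes is read beside the HFD values of Mt1 and Mt2 in the hormone classes. After removal of 584 likely doublets, 12168 cells remained. Endocrine cells were classed by their most abundant hormone into 7782 Ins-dominant cells (Ins1 plus Ins2), 1601 Gcg-dominant, 1112 Sst-dominant and 538 Ppy-dominant cells. The 8 beta cell markers were all highest in the Ins-dominant class, and 6 of 8 alpha, 4 of 6 delta and 3 of 5 PP cell markers were highest in their own class. These markers include the hormone genes that defined the classes, and the same lists named the endocrine clusters. Part of each count was thus fixed in advance, and the counts are a description only. Levels are given as CPM, counts per 1000000 (the UMIs of a gene, per that many UMIs of all cells of the class in a library). The 4 libraries shared between 6 and 11 barcodes per pair, at most 0.236% of the smaller library.

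In the GENCODE annotation of GRCm38, Mt1 (ENSMUSG00000031765) lies at chr8:94179082-94180327 and Mt2 (ENSMUSG00000031762) at chr8:94172664-94173568, both on the plus strand with 5513 bases between them. Mtf1 (ENSMUSG00000028890) is at chr4:124802104-124849800, Slc30a1 (ENSMUSG00000037434) at chr1:191906767-191913247 and Slc30a8 (ENSMUSG00000022315) at chr15:52295553-52335798, also on the plus strand. The longest run of bases that Mt1 and Mt2 transcripts share is 20, so a read longer than that cannot match both in full.

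The metal response element is the sequence that ties the metallothioneins to zinc, and its core was therefore searched in the members. The cores TGCACNC and TGCGCNC, 7 bases long, were looked for on both strands from 250 bases before the RefSeq gene start to the start codon, a window of 472 bases for Mt1, 480 for Mt2 and 476 for Slc30a1. Mt1 held 5 cores, Mt2 held 7 and Slc30a1 held 2. Each core is given in capitals with its flanks in lower case, 21 bases on the plus strand of GRCm38. A core on the minus strand reads as its reverse complement. Sequences are from the RefSeq promoter table and the GRCm38 transcripts.
Mt1 site 1, chr8:94179059-94179079: cccgctgTGCACACtggcgct
Mt1 site 2, chr8:94179084-94179104: ggagctcTGCACTCcgcccga
Mt1 site 3, chr8:94179102-94179122: cgaaaagTGCGCTCggctctg
Mt1 site 4, minus strand, chr8:94179166-94179186: gcctgctGGGTGCAaaccctt
Mt1 site 5, chr8:94179180-94179200: aacccttTGCGCCCggactcg
Mt2 site 1, chr8:94172388-94172408: tcgcctcTGCACCCggcccct
Mt2 site 2, chr8:94172483-94172503: gacccttTGCGCTCagctcct
Mt2 site 3, minus strand, chr8:94172561-94172581: ggagggcGTGTGCAggctctg
Mt2 site 4, minus strand, chr8:94172615-94172635: tcgggtcGTGCGCAggcccag
Mt2 site 5, minus strand, chr8:94172669-94172689: aaagggcGTGTGCAggcggcg
Mt2 site 6, minus strand, chr8:94172688-94172708: cgggggcGCGTGCAtggtgcc
Mt2 site 7, chr8:94172722-94172742: gagctttTGCGCTCgacccaa
Slc30a1 site 1, minus strand, chr1:191906731-191906751: gggttccGAGTGCAaagcaaa
Slc30a1 site 2, minus strand, chr1:191906804-191906824: ccgggccGAGCGCAgtcgccg

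Of these, 4 of the Mt1 cores fell in the 229 bases annotated as 5′ UTR, where 0.155% of 58527 protein-coding transcripts held as many in their first 229 bases and 21.0% held at least 1. Mt2 had 3 cores in its 184 annotated bases, as many as 0.515% of transcripts, and Slc30a1 had 1 in 240, as did 21.7%. In the 250 bases before the RefSeq gene start alone, 21.4% of 32851 promoters held at least 1 core and 1.26% held 3 or more. Mt1 and Slc30a1 each held 1 core in those 250 bases, and Mt2 held 3. Matches are a description of the letters in these windows and do not show that MTF-1 binds them. The Mtf1 promoter held 0 cores, and the promoter of Slc30a8 is not shown.

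**Figure D1:**
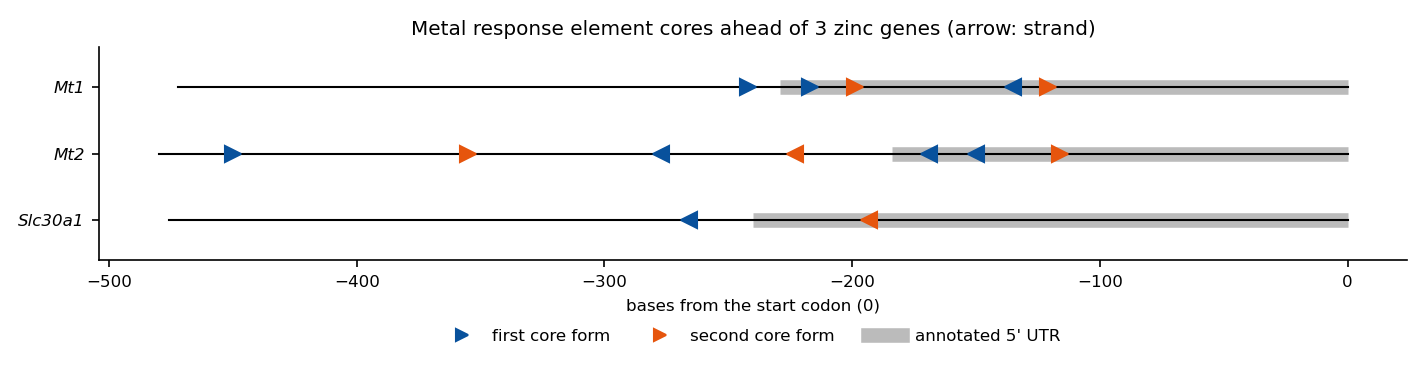
Positions of the metal response element cores ahead of Mt1, Mt2 and Slc30a1. The horizontal axis gives bases from the start codon, arrows point along the strand of the core, blue marks the TGCACNC form and orange the TGCGCNC form, and grey bars mark the annotated 5′ UTR; 4 of the 5 Mt1 cores and 3 of the 7 Mt2 cores lie in it.

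The members differed widely in where they were detected. In WT SCD, Mt1 reached 974 CPM in Ins-dominant, 1414 in Gcg-dominant, 459.5 in Sst-dominant and 1866 in Ppy-dominant cells. Stromal-like cells held 2210 CPM, and endothelial-like cells held 186 CPM. The stromal-like class joins 2 clusters, 1 led by collagen and other matrix genes (33, 11, 19 and 53 cells in WT SCD, HH SCD, WT HFD and HH HFD) and 1 by pericyte and smooth muscle genes (12, 5, 26 and 52 cells), so its makeup differs between the libraries. The counting intervals of these 6 levels do not overlap, so the order from endothelial-like through Sst, Ins, Gcg and Ppy to stromal-like holds beyond counting error in that library. HH SCD gave the 4 hormone classes the same order. In WT HFD, Ins-dominant cells were above Gcg-dominant cells (243 and 183 CPM), and in HH HFD they were the lowest of the 4 classes (109.9 CPM, against 136 CPM in Sst-dominant cells).

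Mt2 followed the same order in WT SCD, with 428 CPM in stromal-like, 423 CPM in Ppy-dominant, 299 CPM in Gcg-dominant, 206 CPM in Ins-dominant, 50.7 CPM in Sst-dominant and 38.5 CPM in endothelial-like cells, and only the top pair and the bottom pair of neighbours had overlapping intervals. Across the 16 combinations of hormone class and library, the log2 levels of Mt1 and Mt2 were correlated with Pearson's r of 0.98, a description over points that share libraries. The corresponding r was 0.37 for Mt1 and Slc30a1, 0.24 for Mt1 and Slc30a8 and 0.01 for Mt1 and Mtf1. With endothelial- and stromal-like cells added, 24 points in all, these became −0.46, 0.39 and −0.34 and that of Mt1 and Mt2 was 0.97. The r of Mt1 with Mt2 and with Slc30a8 thus stayed above 0, while those with Slc30a1 and Mtf1 fell below 0.

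Slc30a8 was high in both Ins- and Gcg-dominant cells, at 485 and 564 CPM in WT SCD. The other hormone classes held little of it, with 17.5 CPM in Sst-dominant and 56.4 CPM in Ppy-dominant cells. Slc30a1 showed another pattern, with 59.4 CPM in endothelial-like cells of WT SCD against 8.19 to 14.0 CPM in the 4 hormone classes. Of these 6 classes, Mtf1 was likewise highest in endothelial-like cells, at 80.4 CPM in WT SCD, and held 15.9 to 32.4 CPM in the hormone classes. Since 3′ libraries count transcripts and not their length, these are levels of the same gene between classes, and no order between genes is drawn from them.

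**Figure D2:**
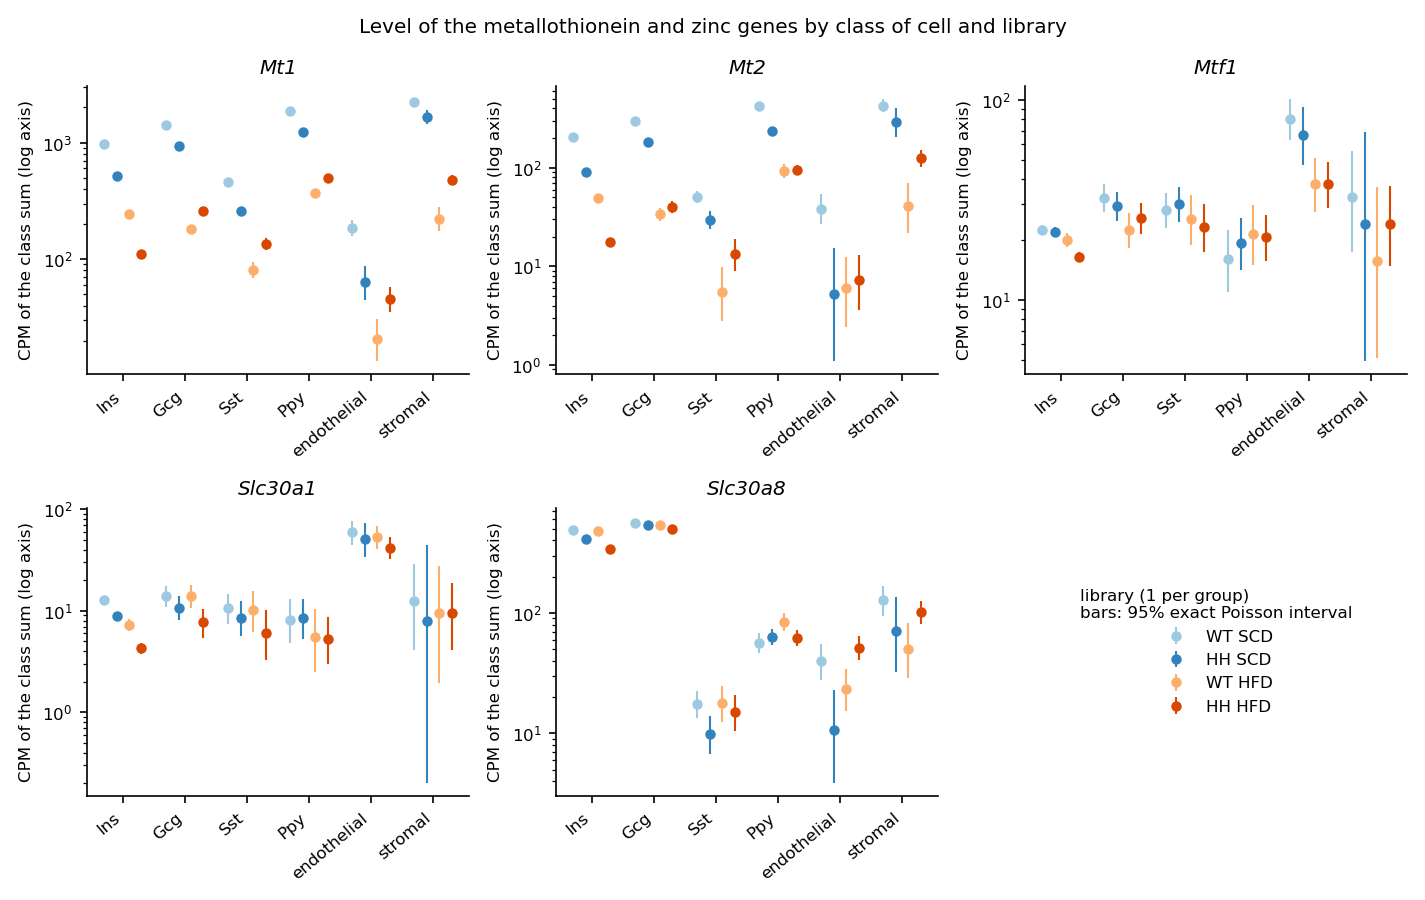
Level of each of the 5 genes in CPM (log axis) by class of cell, 1 point per library, with 95% exact Poisson intervals. Mt1 and Mt2 spread by library in every hormone class, while Slc30a8 is high in Ins and Gcg cells in each library and Slc30a1 is highest in endothelial-like cells.

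In Ins-dominant cells, Mt1 and Mt2 were lower in HH than in WT on both diets. On SCD, Mt1 was 974 CPM in WT and 514 CPM in HH, and on HFD 243 CPM in WT and 109.9 CPM in HH, from between 7491 and 51762 UMIs. The WT library was above the HH library of the same diet each time, and both SCD libraries were above both HFD libraries. The log2 ratio of HH over WT was −0.92 (−0.94 to −0.90) on SCD and −1.15 (−1.19 to −1.10) on HFD, a 1.89-fold and a 2.21-fold lower level in HH. With the looser filter on cells the HFD ratios were −1.0 for Mt1 and −1.32 for Mt2.

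Mt2 took the same order at a lower level, with 206 CPM in WT and 90.3 CPM in HH on SCD, and 49.8 CPM in WT and 17.8 CPM in HH on HFD. Its log2 ratio of HH over WT was −1.19 (−1.24 to −1.14) on SCD and −1.48 (−1.59 to −1.37) on HFD. In both diets the interval of Mt2 lay below that of Mt1. Accordingly Mt2 made up 17.5% (17.2 to 17.8) of the Mt1 and Mt2 UMIs in WT SCD and 14.9% (14.5 to 15.3) in HH SCD. On HFD its share was 17.0% (16.3 to 17.8) in WT and 14.0% (13.2 to 14.7) in HH, so the share was lower in HH on both diets, while within a genotype the intervals of the 2 diets overlapped.

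Slc30a1, the zinc exporter of the cell surface, was 12.9 CPM (WT) and 8.92 CPM (HH) on SCD and 7.27 CPM (WT) and 4.27 CPM (HH) on HFD, from 237 to 685 UMIs. The order of the 4 libraries was that of Mt1 and Mt2, but the Slc30a1 intervals of HH SCD (8.12 to 9.77 CPM) and WT HFD (6.38 to 8.26 CPM) overlapped. Its log2 ratio of HH over WT was −0.53 (−0.71 to −0.36) on SCD and −0.77 (−1.02 to −0.52) on HFD, where its mean level was under the 10 CPM used to count genes. The mean of the HFD ratios within clusters was −0.03, which gives equal weight to cluster 8, at 0.90 (−0.89 to 3.03) from 4 and 10 UMIs. Clusters 13 and 9, which held most HFD cells, were at −0.57 and −0.43. Mtf1 was 22.3 CPM (WT) and 21.9 CPM (HH) on SCD, and 19.9 CPM (WT) and 16.4 CPM (HH) on HFD. For Mtf1 the interval of the ratio included 0 on SCD (−0.03, −0.14 to 0.09), and the ratio was −0.28 (−0.42 to −0.14) on HFD.

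On SCD, Slc30a8 was 485 CPM in WT and 414 CPM in HH, and on HFD 476 CPM in WT and 337 CPM in HH. Both HH libraries were below both WT libraries, and unlike the metallothioneins the WT libraries of the 2 diets were close. The log2 ratio of HH over WT was −0.23 (−0.25 to −0.20) on SCD and −0.50 (−0.53 to −0.47) on HFD.

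A log2 ratio of 0.5 or more in either direction was used to set these values beside all genes with a mean of at least 10 CPM. On SCD, 3 of the 5 members were lower in HH past that size (Mt1, Mt2 and Slc30a1, the last just inside it), against 0.428% of 6071 genes lower and 0.0659% higher. Mt2 ranked 2 and Mt1 ranked 4 from the lowest ratio of all genes. On HFD, 2 of the 4 members that passed the level filter were lower past that size (Mt1 and Mt2), with Slc30a8 just outside it, against 3.11% of 5909 genes lower and 1.07% higher, and Mt2 ranked 6 and Mt1 ranked 10. These counts and ranks hold Mt1 and Mt2, on which the selection rested, and Slc30a1, which passed the filter on SCD only through its WT level. They are a description, and nothing is read from them.

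The median ratio of all genes was −0.08 on SCD and −0.14 on HFD. When the libraries were scaled so that this median was 0, the genes past the size went from 26 lower and 4 higher to 13 lower and 6 higher on SCD, and from 184 lower and 63 higher to 76 lower and 139 higher on HFD. Under that scaling Mt1 was −0.84 and −1.01 and Mt2 was −1.11 and −1.34 on SCD and HFD. Slc30a8 was −0.14 and −0.36. Slc30a1 on SCD was −0.45 under that scaling and −0.48 in CPM without hormone and mitochondrial genes, so that 2 of 5 members rather than 3 were past the size.

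**Figure D3:**
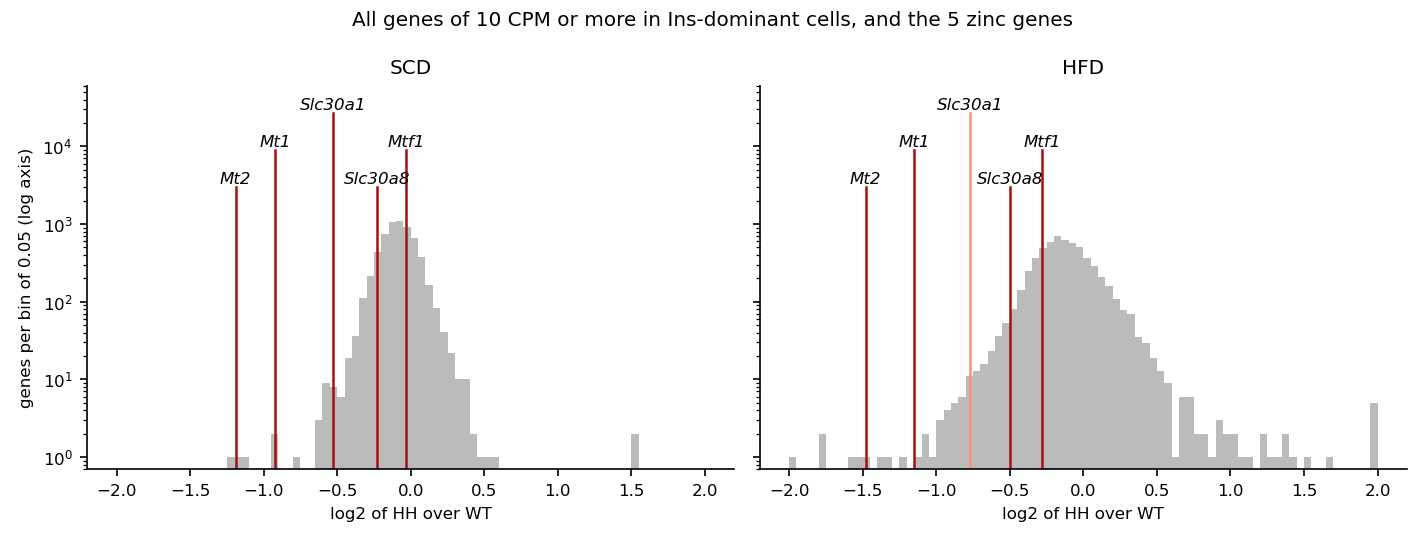
Number of genes (log axis) by log2 ratio of HH over WT in Ins-dominant cells, in bins of 0.05, with the 5 members marked by lines and ratios past 2 in either direction placed in the outermost bins. The pale line for Slc30a1 on HFD marks a level under 10 CPM; Mt1 and Mt2 sit in the lower tail on both diets at −0.92 and −1.19 (SCD) and −1.15 and −1.48 (HFD), while Mtf1 sits among the bulk of genes.

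Whether the lower level lay in many cells or in few was asked after each cell had been thinned to 3000 UMIs. On SCD, 85.1% of WT and 68.1% of HH Ins-dominant cells then held at least 1 Mt1 or Mt2 UMI, and on HFD 46.4% of WT and 26.7% of HH cells. The difference of HH from WT was −17.0 percentage points (−19.6 to −14.3) on SCD and −19.8 points (−23.2 to −16.4) on HFD. Without thinning the shares were 99.6%, 97.8%, 86.9% and 73.1% in the order WT SCD, HH SCD, WT HFD and HH HFD, at median depths of 26250, 26119, 29622 and 24172 UMIs per cell. The mean number of metallothionein UMIs per thinned cell was 3.84, 1.96, 0.995 and 0.447 in the same order.

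Cells with at most 2 metallothionein UMIs after thinning were 43.5% of the WT SCD and 69.3% of the HH SCD Ins-dominant cells. On HFD the remaining UMIs were held by fewer cells. The 10% of cells with the most Mt2 held 31.3% (WT) and 38.4% (HH) of the Mt2 UMIs on SCD, and 49.1% (WT) and 67.9% (HH) on HFD. For Slc30a8 the same shares were 18.6% and 19.4% on SCD, and 19.6% and 21.3% on HFD. A lower level by itself raises such a share, and the part of the level was not tested.

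Free RNA from broken cells gives droplets UMIs of genes their cell does not express. In endothelial-like cells, thinned alike, an Mt1 or Mt2 UMI was held by 34.4% (WT) and 17.0% (HH) on SCD and by 6.99% (WT) and 8.37% (HH) on HFD, at unthinned median depths of 5790 to 7078 UMIs. The share in Ins-dominant cells was above that of endothelial-like cells in each library, although these cells can make metallothioneins of their own. For Slc30a8, which endothelium is not known for, the thinned shares were 75.3%, 70.0%, 76.0% and 61.7% in Ins-dominant cells against 8.59%, 5.68%, 6.99% and 7.39% in endothelial-like cells.

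**Figure D4:**
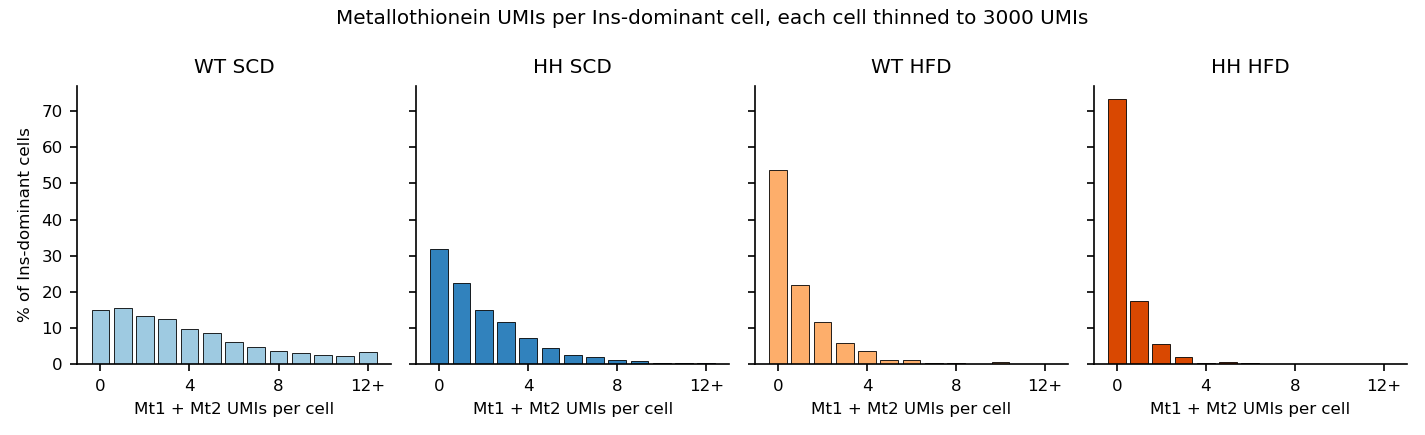
Share of Ins-dominant cells (percent) by number of Mt1 plus Mt2 UMIs per cell after thinning every cell to 3000 UMIs, 1 panel per library. The bar at 0 UMIs is 14.9% (WT) and 31.9% (HH) on SCD, and 53.6% (WT) and 73.3% (HH) on HFD.

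Depth and mitochondrial share differed between the libraries, with a median mitochondrial share per Ins-dominant cell of 5.15% (WT) and 5.01% (HH) on SCD and of 4.92% (WT) and 4.00% (HH) on HFD. When cells were split into 4 equal bins by total UMIs, Mt1 was lower in HH in 4 of 4 bins on each diet, with log2 ratios of −1.09 to −0.85 on SCD and −2.09 to −0.99 on HFD. In 4 bins by mitochondrial share, Mt1 was −1.02 to −0.80 on SCD and −0.99 to −0.74 on HFD. Mt2 and Slc30a8 were also lower in HH in all 4 bins of either measure. For Slc30a8 the HFD ratios were −0.70 to −0.28 across depth and −0.61 to −0.33 across mitochondrial share.

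The Ins-dominant cells fell into several clusters that were made without the 5 members. On SCD, most were in clusters 0, 1 and 8, where Mt1 was 767 CPM in WT and 412 CPM in HH (cluster 0), 1154 and 610.4 CPM (cluster 1), and 1345 and 945 CPM (cluster 8). The log2 ratios were −0.90, −0.92 and −0.51, and those of Mt2 −1.14, −1.19 and −0.84. Slc30a8 was lower in HH in the same 3 clusters, at −0.19, −0.21 and −0.47.

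On HFD, the 2 genotypes were held by different clusters, with 877 of the WT and 887 of the HH cells in cluster 13 but 103 WT and 1620 HH cells in cluster 9, whose leading genes were Dapl1, Aldh1a3, Inhba and Serpina7. In cluster 13, Mt1 was 234 CPM (WT) and 148 CPM (HH), a log2 ratio of −0.66 (−0.73 to −0.60). In cluster 9 it was 242 and 80.7 CPM (−1.59, −1.69 to −1.48). HH cells of cluster 9 thus held less Mt1 than HH cells of cluster 13, while the WT cells of both were at like levels. In cluster 8, with 60 WT and 111 HH cells, Mt1 was 448 and 351 CPM (−0.35, −0.50 to −0.20). Slc30a8 was lower in HH by like amounts in the 3 clusters, with ratios of −0.33 in cluster 13, −0.38 in cluster 9 and −0.35 in cluster 8, each nearer to 0 than the −0.50 of the whole class. For Slc30a1 on HFD, the ratio was −0.57 (−0.93 to −0.21) in cluster 13, and its interval included 0 in cluster 9 (−0.43, −1.14 to 0.36) and in cluster 8 (0.90, −0.89 to 3.03, from 4 and 10 UMIs). The interval of the Mtf1 ratio included 0 in each of the 6 pairs of cluster and diet.

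In the other hormone classes, Mt1 was lower in HH on SCD and higher in HH on HFD. Mt1 of Gcg-dominant cells was 1414 CPM (WT) and 934 CPM (HH) on SCD, and 183 CPM (WT) and 261 CPM (HH) on HFD. The log2 ratio was −0.60 (−0.65 to −0.55) on SCD and 0.51 (0.38 to 0.64) on HFD. The background of genes past a ratio of 0.5 in this class was 1.70% lower and 1.08% higher on SCD, where 2 of 5 members were lower (Mt1 and Mt2), and 1.60% higher and 2.06% lower on HFD, where 1 was higher (Mt1) and 1 lower (Slc30a1 at −0.86, −1.48 to −0.25, from 63 and 38 UMIs). Slc30a1 passed the level filter there only through WT, at 13.9 CPM against 7.68 CPM in HH, so its place in the count is no support.

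In Sst-dominant cells, Mt1 was 459.5, 258, 80.4 and 136 CPM in WT SCD, HH SCD, WT HFD and HH HFD, with ratios of −0.83 (−0.96 to −0.71) and 0.76 (0.48 to 1.04). Here 3 of the 4 members that passed were lower on SCD (Mt1, Mt2 and Slc30a8, with Slc30a8 at 17.5 CPM in WT and, from 31 UMIs, 9.83 CPM in HH, under the level filter) against a background of 2.98% lower and 2.22% higher, and 1 of 3 was higher on HFD against 5.75% lower and 3.93% higher. In Ppy-dominant cells, Mt1 was 1866, 1236, 369 and 494 CPM, with ratios of −0.59 (−0.66 to −0.53) and 0.42 (0.28 to 0.56). Of 4 members that passed in that class, 2 were lower on SCD (backgrounds 4.78% lower and 5.56% higher) and 0 were past the size on HFD (backgrounds 8.86% lower and 3.54% higher).

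Mt2 was also lower in HH in these 3 classes on SCD, at −0.72, −0.77 and −0.84 in Gcg-, Sst- and Ppy-dominant cells. On HFD its ratio was 0.25 (−0.06 to 0.57) in Gcg-dominant and 0.03 (−0.27 to 0.32) in Ppy-dominant cells, both with intervals across 0. It was 1.26 (0.23 to 2.40) in Sst-dominant cells, which held 11 and 31 UMIs. In 62.8% of Sst-dominant cells, Sst was under 90% of the hormone UMIs. Keeping only the other cells gave Mt2 a ratio of −1.41 on SCD and 1.69 on HFD, and Mt1 −1.05 and 0.49. The same rule gave Mt1 on HFD 0.34 in Gcg-dominant and 0.40 in Ppy-dominant cells. With the looser filter on cells, the HFD ratios in Gcg-, Sst- and Ppy-dominant cells were 0.55, 0.67 and 0.35 for Mt1 and 0.49, 0.60 and 0.11 for Mt2. The direction of Mt1 on HFD held in these 3 classes under both choices, which were added after the data were seen, but under the 90% rule it was past 0.5 in none of them, and Mt2 in Ppy-dominant cells was at −0.06. The HFD difference in the other hormone classes was thus measured with more UMIs for Mt1 than for Mt2.

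Endothelial- and stromal-like cells gave Mt1 the same pair of directions from fewer UMIs, whereas the macrophage-like ratio was below 0 on both diets. Endothelial-like cells held 186 CPM (WT) and 63.4 CPM (HH) on SCD, and 20.7 CPM (WT) and 45.2 CPM (HH) on HFD, with ratios of −1.55 (−2.11 to −1.03) and 1.13 (0.44 to 1.86), from 169, 36, 24 and 68 UMIs. On SCD, 3 of 5 members were lower in this class against 12.2% of genes lower and 14.1% higher, with Mt2 (5.28 CPM in HH) passing the level filter only through WT. On HFD 2 of 4 were higher against 12.0% lower and 8.12% higher, and 1 of these, Slc30a8, turned to −0.56 without cells of at least 10% hormone UMIs. Stromal-like cells held 2210, 1657, 223 and 482 CPM of Mt1, with ratios of −0.41 (−0.64 to −0.20) and 1.11 (0.74 to 1.50), and only 16 HH SCD cells. Without cells of at least 10% hormone UMIs the stromal-like HFD ratios were 1.75 for Mt1 and 3.07 for Mt2, the latter 1.61 with all cells. In the stromal-like class 27.6% of genes were lower and 26.2% higher past 0.5 on SCD, where 3 of 5 members were lower, and 33.6% were lower and 12.5% higher on HFD, where the 4 members that passed were higher. Slc30a1 passed there on SCD with 5 UMIs in WT and 1 in HH. Without the hormone-rich cells, Slc30a8 on HFD turned from 1.02 to −0.45 and Mtf1 went from 0.61 to 0.33, which left Mt1 and Mt2 past the size.

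Over 9 classes with a value, Mt1 was lower in HH in 9 on SCD, with an interval below 0 in 7. On HFD it was lower in 3, with an interval below 0 in 2 (Ins-dominant and macrophage-like), and higher in 6, with an interval above 0 in 5. Macrophage-like cells held 462 CPM in WT HFD and 276 CPM in HH HFD (−0.74, −1.02 to −0.47), with 49 HH cells of which 21 had under 10% hormone UMIs. Without the cells above that share, a choice made after the values were seen, the HFD ratio of Mt1 was 0.05 in macrophage-like cells and −1.26 in lymphocyte-like cells, in place of −0.74 and −0.07. Classes of 1 library are not independent of each other, since they come from the same pooled islets and the same run.

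**Figure D5:**
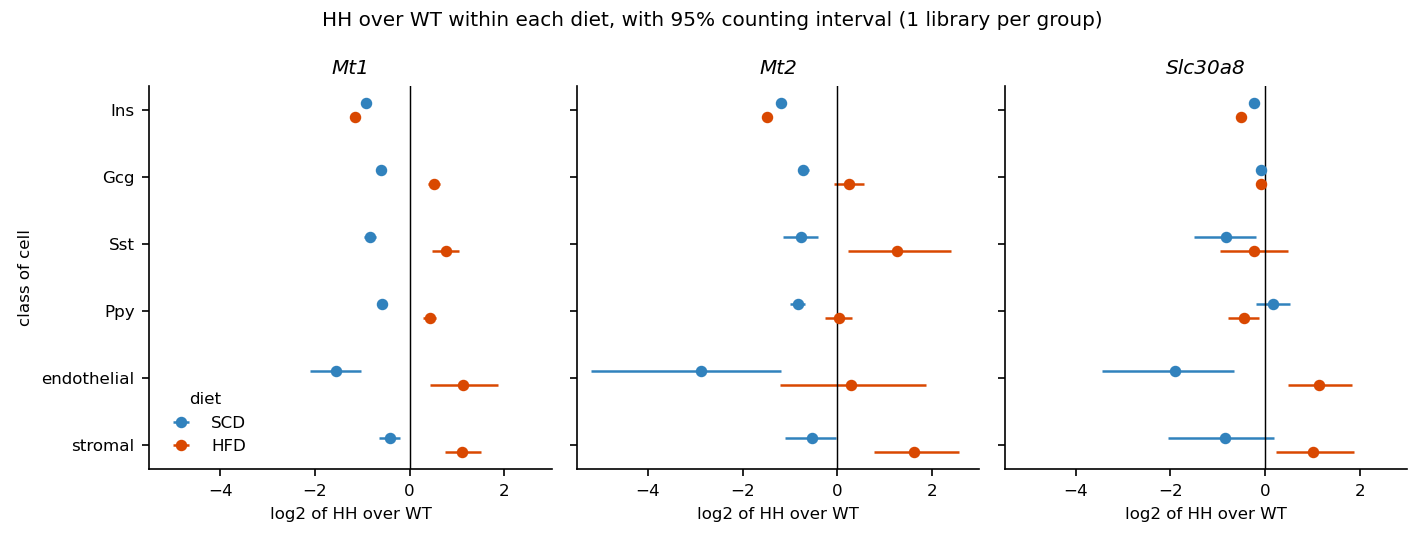
log2 ratio of HH over WT within each diet for Mt1, Mt2 and Slc30a8 by class of cell, with 95% counting intervals and 1 library per group. Mt1 is left of 0 on SCD in the 6 classes shown, and on HFD is left of 0 in Ins-dominant cells (−1.15) and right of 0 in the other 5, from 0.42 to 1.13.

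The Slc30a8 ratios outside the Ins-dominant class differed between classes. In Sst-dominant cells the SCD ratio was −0.83 (−1.50 to −0.18), and the HFD ratio was −0.23 (−0.95 to 0.48). Ins1 plus Ins2 were 1.86% (WT) and 1.32% (HH) of the UMIs of Sst-dominant cells on SCD. The part of free RNA from insulin cells in their Slc30a8 level was not tested. In Ppy-dominant cells the Slc30a8 ratio was 0.17 (−0.19 to 0.53) on SCD and −0.45 (−0.78 to −0.12) on HFD. In Gcg-dominant cells Slc30a8 was 564 CPM (WT) and 534 CPM (HH) on SCD, and 535 CPM (WT) and 503 CPM (HH) on HFD. The ratios of −0.08 (−0.15 to −0.00) and −0.09 (−0.17 to −0.01) were nearer to 0 than those of Ins-dominant cells, and their intervals did not overlap with them. In endothelial-like cells the level of Slc30a8 by library, from few UMIs, took the order of the insulin share of the class, which was not looked at cell by cell. Slc30a8 was 39.6, 10.6, 23.3 and 51.2 CPM there, and Ins1 plus Ins2 were 3.20%, 1.27%, 1.47% and 7.26% of UMIs. Without the cells that held at least 10% hormone UMIs, a choice made after the values were seen, the HFD ratio of Slc30a8 in this class was −0.56 in place of 1.14, and its SCD ratio was −0.69 in place of −1.91. Mt1 was then −1.08 in place of −1.55 on SCD and 0.87 in place of 1.13 on HFD. Mt2 was −2.47 in place of −2.87 on SCD and −0.35 in place of 0.28 on HFD.

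Between the diets, Mt1 and Mt2 were lower on HFD in both genotypes in the 4 hormone classes and in stromal-like cells. In HH, the log2 ratio of HFD over SCD of Mt2 was 0.47 (−1.45 to 2.95) in endothelial-like and 0.19 (−1.53 to 2.57) in macrophage-like cells, with 3 UMIs in each class on SCD. In Ins-dominant cells, Mt1 was 4.01-fold lower on HFD in WT and 4.68-fold lower in HH, and Mt2 was 4.14-fold and 5.06-fold lower. Slc30a1 was lower too, with log2 ratios of HFD over SCD of −0.83 (−1.04 to −0.61) in WT and −1.06 (−1.28 to −0.85) in HH. Of the members, 3 of 5 were lower by at least 0.5 in WT, against 5.68% of genes lower and 1.65% higher, and 2 of the 4 that passed in HH, against 8.84% lower and 2.84% higher. Slc30a1 passed in WT only through its SCD level. Slc30a8 was at −0.03 (−0.06 to 0.00) in WT and −0.30 (−0.32 to −0.27) in HH, and Mtf1 at −0.16 and −0.42.

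In the other 3 hormone classes and in stromal- and endothelial-like cells, the fall in Mt1 from SCD to HFD was larger in WT than in HH. It was 7.71-fold in WT and 3.58-fold in HH for Gcg-dominant cells, where 3 of 5 and 2 of 4 members were lower against 10.9% and 10.1% of genes (5.49% and 6.14% higher). Sst-dominant cells showed 5.71-fold and 1.90-fold, with 2 members lower in each genotype against 7.28% and 7.53% of genes, and Slc30a8 higher in HH (0.61, −0.13 to 1.36) against 11.1% and 10.8% higher. Of these, Mt2 in WT (5.56 CPM on HFD) and Slc30a8 in HH (9.83 CPM on SCD) passed the level filter only through the other diet. Ppy-dominant cells showed 5.06-fold and 2.50-fold, with 2 members lower in each against 5.06% and 6.20%, and Slc30a8 higher in WT (0.59, 0.23 to 0.96) against 20.4% and 13.1% higher. Stromal-like cells, at 9.89-fold and 3.43-fold, and endothelial-like cells, at 8.98-fold and 1.40-fold, followed the same order, although the HH endothelial-like interval of the log2 ratio (−1.09 to 0.14) included 0. In macrophage-like cells the fall was 2.43-fold in WT and 2.56-fold in HH, with overlapping intervals. Of the 6 classes counted without the macrophage-like cells, the Ins-dominant cells had the larger fall in HH. In cluster 8, which had at least 50 Ins-dominant cells in each library, the larger fall in HH was not seen. The log2 ratio of HH over WT of Mt1 there was −0.51 (−0.58 to −0.44) on SCD and −0.35 (−0.50 to −0.20) on HFD. The diets were also held by different clusters. Alpha-like cells were mostly in cluster 2 on SCD (362 WT and 429 HH) and in cluster 14 on HFD (282 and 484). Delta-like cells were mostly in cluster 3 (321 and 328) and cluster 17 (159 and 284). Beta-like cells were mostly in clusters 0 (808 and 1007) and 1 (864 and 688) on SCD. On HFD they were mostly in clusters 13 (877 and 887) and 9 (103 and 1620). The changes in Ins-, Gcg- and Sst-dominant cells are thus mostly between different clusters. These comparisons share their libraries with those of HH over WT and are another view of the same 4 levels.

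The other genes of zinc handling were looked at as lists. Of 10 zinc exporter genes of the Slc30 family, 5 passed 10 CPM in Ins-dominant cells on SCD and 1 was past the size, Slc30a1, with a list median of −0.23 beside −0.08 for all genes. On HFD 4 passed and 0 were past the size, with a median of −0.11 beside −0.14. Among the intracellular exporters, Slc30a5 was 25.2, 21.4, 25.6 and 24.7 CPM and Slc30a9 29.1, 27.7, 29.6 and 26.2 CPM in WT SCD, HH SCD, WT HFD and HH HFD. Neither showed the order of Mt1, and both are given, as is Slc39a7, as examples chosen after their values were seen.

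Of 14 zinc importer genes of the Slc39 family, 5 passed on each diet and 0 were past the size, with medians of −0.12 and −0.08. Slc39a7, which releases zinc from the endoplasmic reticulum, was 82.4, 82.6, 98.3 and 84.2 CPM. Of 9 copper handling genes 8 passed and 0 were past the size on either diet, with medians of 0.01. Of the other metallothioneins, Mt4 had 0 UMIs in Ins-dominant cells, and Mt3, detected in each library but under 10 CPM and named here after its values were seen, was 3.10, 4.01, 1.75 and 4.24 CPM, higher in HH on both diets.

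Metallothioneins are also induced by glucocorticoids and by stress, so lists of those responses were read beside them. Of 8 glucocorticoid response genes, 6 passed on each diet. On SCD all 6 were below 0 and 0 were past the size, with a median of −0.23 beside −0.08 for all genes. Their summed level on SCD was 519 CPM in WT and 427 CPM in HH. On HFD 4 were below 0 and 2 above, with a median of −0.24 beside −0.14 for all genes. There 1 was past the size, Nfkbia at −0.70, against 3.11% of all genes lower. Of 8 oxidative stress response genes, 5 passed and 0 were past the size, with medians of 0.04 and −0.11. Of 20 genes of the response to tissue dissociation, 18 passed on SCD with 12 below 0, 1 of them past the size, a median of −0.07 beside −0.08 for all genes, and a summed level of 6679 CPM in WT and 6650 CPM in HH. On HFD, the 19 that passed were all below 0 and 14 were past the size, against 3.11% of all genes lower, the median was −0.60 beside −0.14, and the summed level was 5791 CPM (WT) and 4019 CPM (HH).

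In Ins-dominant cells on HFD the dissociation genes and Mt1 were thus lower together. In Sst-dominant cells on HFD, 19 of 20 were below 0 and 12 were past the size, against 5.75% of all genes lower, with a median of −0.55 beside −0.04 and summed levels of 28326 and 20683 CPM, while Mt1 was higher there. In Gcg- and Ppy-dominant cells on HFD their medians were 0.03 and −0.05. On SCD their median was 0.18 in each of these 3 classes, where Mt1 was lower. The part of dissociation and of glucocorticoids in the metallothionein levels was not tested.

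Cell to cell, Mt1 followed Mt2 most closely. Over the Ins-dominant cells of a library, Pearson's r between log-scaled Mt1 and Mt2 was 0.70 on average, with 0.60 in the lowest and 0.78 in the highest library. Among 1150 genes with at least 50 CPM in every library, those most like Mt1 were Ftl1 (mean r 0.44), Selenow (0.34), Camk2n1 (0.32), Zdhhc2 (0.32), mt-Co2 (0.30), Fth1 (0.29), mt-Atp6 (0.28) and mt-Co3 (0.26), where the 99th percentile of all genes was 0.24. Ftl1 and Fth1 encode the light and heavy chains of ferritin, the iron store, Selenow encodes a selenoprotein, and the mt- genes are encoded by the mitochondrial genome.

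The genes most like Slc30a8 were Slc2a2 (0.27), Hadh (0.20), Ins1 (0.19), Atp2a2 (0.19), Ero1lb (0.18), Ppp1r1a (0.18), G6pc2 (0.18) and Tmem215 (0.17), with a 99th percentile of 0.15. Slc2a2 encodes the glucose transporter GLUT2 and G6pc2 the islet glucose-6-phosphatase, and several others on the list are known for high expression in beta cells. Between Mt1 and Slc30a8 the mean r was 0.03, from −0.06 to 0.14 between libraries. Mt1 had a mean r of 0.02 with Mtf1 and of 0.09 with Slc30a1, both sparse genes. All of these are descriptions over cells that share depth and library, and correlations this weak are not read as relations between genes.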

How the data were processed

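Islet cells of 4 libraries (WT and HH, each on SCD and HFD) were profiled with 10x Chromium 3′ v3.1 chemistry. The deposited values are UMI counts per gene and barcode, which the authors made with Cell Ranger 6.0 on mm10 and did not normalise, correct for free RNA or clear of doublets in these files. Cells were kept with under 10% mitochondrial UMIs, 3000 to 50000 UMIs and 2000 to 5000 genes. Scrublet scores were computed per library, and the top 0.8% per 1000 barcodes were removed, a limit chosen after the automatic threshold marked only 111 cells. Cells were clustered in scanpy 1.11.5 (3000 variable genes, 30 components, 20 neighbours, Leiden resolution 1) without the 5 members. Class sums were scaled to CPM of the sum, a sum of 0 being set to 3 counts in ratios. Ratios have exact conditional binomial, levels exact Poisson and shares exact Clopper-Pearson intervals at 95%, and the ratio step was tested on simulated data. Thinning drew UMIs without replacement. The rule for named genes took the members, zinc and copper genes past the size, and the 8 genes most correlated with Mt1 and with Slc30a8. Slc30a5, Slc30a9, Slc39a7, Mt3, Mt4, Nfkbia and the leading genes of a cluster are named outside it, after their values were seen. The members and the lists were chosen with earlier results of these data known. Python 3.11.15, numpy 2.4.6, scipy 1.17.1 and pandas 2.3.3 were used. Alternatives covered cell filters, doublets, scaling, level filter, size, thinning depth and class definition.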

Additional observations from a re-analysis of the deposited data

Results flagged for a closer look

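In 8 pairs of class and gene the ratio of HH over WT had an interval below 0 on SCD and above 0 on HFD, and this difference was not tested because a ratio here sets 1 library against 1 other. For Mt1 the pairs of log2 ratios were −0.60 and 0.51 in Gcg-dominant, −0.59 and 0.42 in Ppy-dominant, −0.83 and 0.76 in Sst-dominant, −1.55 and 1.13 in endothelial-like and −0.41 and 1.11 in stromal-like cells. For Mt2 they were −0.77 and 1.26 in Sst-dominant and −0.54 and 1.61 in stromal-like cells. Without hormone-rich cells the stromal-like HFD ratios were 1.75 (Mt1) and 3.07 (Mt2), and the endothelial-like Mt1 ratios were −1.08 (SCD) and 0.87 (HFD). For Slc30a8 the pair was −1.91 and 1.14 in endothelial-like cells, where its level by library took the order of the insulin share. That pair was −0.69 and −0.56 without hormone-rich cells.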

How the results depend on the processing

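Over 13 alternatives in Ins-dominant cells, the log2 ratio of HH over WT stayed between −0.93 and −0.78 for Mt1 on SCD, −1.39 and −0.87 on HFD, −1.23 and −1.06 for Mt2 on SCD, and −1.74 and −1.24 on HFD. Mt1 and Mt2 kept a ratio of −0.5 or lower in each of the 13. Slc30a1 ranged from −0.59 to −0.45 on SCD, and Slc30a8 on HFD, just outside that size as reported, from −0.53 to −0.35. CPM without hormone and mitochondrial genes gave −0.87 (Mt1) and −0.17 (Slc30a8) on SCD. Median-of-ratios scaling gave on SCD and HFD −0.84 and −1.01 (Mt1), −1.11 and −1.34 (Mt2) and −0.14 and −0.36 (Slc30a8). The mean of ratios within clusters, added after the data were seen, gave on SCD −0.78 (Mt1), −1.06 (Mt2) and −0.29 (Slc30a8), and on HFD −0.87 (Mt1), −1.24 (Mt2), 0.06 (Mtf1), −0.03 (Slc30a1) and −0.35 (Slc30a8). On HFD a looser cell filter gave −1.0 and −1.32 for Mt1 and Mt2, no bounds on genes per cell −1.06 and −1.32, matching on UMIs and mitochondrial share −1.39 and −1.74, and equal weight of cells −1.07 for Mt1 and −0.46 for Slc30a8. Counts of members lower went to 1 on SCD at a size of 1 and to 1 on HFD at 50 CPM. Counts of genes lower and higher went on SCD to 8 and 1 at 50 CPM, 1553 and 1038 with any gene of 3 UMIs or more, and 3 and 2 at a size of 1, and on HFD to 45 and 29, 2256 and 1635, and 13 and 18. Thinning to 5000 UMIs gave a share difference of −12.3 points on SCD. Without cells of at least 10% hormone UMIs, also added later, ratios turned to −0.56 (Slc30a8 endothelial-like, HFD), −0.45 (stromal-like), −0.58 (macrophage-like), −0.69 (lymphocyte-like), 0.05 (Mt1 macrophage-like, HFD) and 0.51 (Mtf1 macrophage-like, SCD, from 6 and 1 UMIs with all cells). The causes were not tested. No paired analysis was possible because each group is 1 library and no replicate numbers exist, and for the same reason no replicate could be left out.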
